A study of Mus musculus with 8 samples.

Results

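The insulin-like growth factor (IGF) system of the mouse hippocampus is described here through 8 genes, the ligand Igf1, the receptor Igf1r and the binding proteins Igfbp2, Igfbp3, Igfbp4, Igfbp5, Igfbp6 and Igfbp7. They were chosen by name, not by their values, though with earlier results of these data known. They are 8 of the 23684 named genes on the array. Of their 14 probes, 11 gave a signal well above background on 4 or more of the 8 arrays and were tested, which left 7 of the 8 genes with a tested probe. The untested gene was Igfbp7.

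Total RNA of hippocampi from C57BL6/J female mice aged 8 weeks was labelled with Cy3 and hybridised to 1-colour Agilent arrays. The mice had been treated with an anti-CD4 antibody (n = 4) or with a control antibody (n = 4), and both groups had been kept for 4 weeks in an enriched environment. CD4 is the surface protein of helper T lymphocytes, so the comparison addresses whether an antibody against these cells changes hippocampal expression. The cell depletion was not measured in these data, and no label gives the animals behind the 8 samples. The p-values therefore reflect the variation among these samples alone, part or all of which may be technical.

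IGF-1 is a secreted growth factor that binds the receptor tyrosine kinase IGF1R and, through it, the PI3K-AKT and MAPK pathways. The binding proteins hold IGFs outside the cell, prolong their life or keep them from the receptor, and are cut by secreted proteases. In the brain, Igf1 is made by neurons and glia, and circulating IGF-1 enters partly through the choroid plexus, the epithelium that makes cerebrospinal fluid. The choroid plexus and meninges are also known sources of Igf2 and Igfbp2.

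A level is the log2 signal of a probe less the 75th percentile of its array, so a level of 0 equals that percentile and each step of 1 is a doubling. Differences are anti-CD4 minus control on that scale. They are given with the standard error (SE) and the adjusted p of limma, which was adjusted over all 23602 rows tested. Where a gene has further tested probes besides its brightest, their values come from a separate fit, adjusted over all 29406 tested probes. A probe's level depends on its sequence as well as on its RNA, so levels of different probes are not ranked.

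Hippocampal marker genes were detected on these arrays. Of the marker lists, 8 of 8 dentate granule neuron genes and 9 of 10 pyramidal neuron genes of CA1 to CA3 were tested, Iyd being the exception. All genes of the astrocyte (9), microglia (10), interneuron (10) and oligodendrocyte (8) lists were tested, against 3 of 10 for T lymphocytes. All arrays lay on 1 slide with 1 scan, with the anti-CD4 arrays in its first row and the control arrays in its second, so slide row and treatment cannot be told apart. Correlations between arrays were 0.988 to 0.996 inside a group and 0.986 to 0.994 across the groups.

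The probes on which the account turns are shown by 30 bases of each, all 5′ to 3′ in the direction of the transcript. For Igf1 they show that the probes read different stretches of RNA. The capitals in the pair from variant 1 mark the 20 bases that both stretches hold. For Igfbp2 they show 2 separate sites, and for Igfbp7 the capitals mark AATAAA, the common polyadenylation signal, within a stretch of few G and C bases.
Igf1 variant 2 probe: gccaccaagaccttccctccccttcttaaa
Igf1 variant 1 probe at transcript base 889: aacaataataAGTCCAATAACATTACAAAG
Igf1 variant 1 probe at transcript base 909: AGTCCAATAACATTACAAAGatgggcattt
Igfbp2 probe at transcript base 958: gagcagcaggagactggtggggcccatgcc
Igfbp2 probe at transcript base 1094: tgacacatgtatttatatttggaaagagac
Igfbp7 probe: aaacaaaacaAATAAAattcttatcacaac

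No IGF gene differed between anti-CD4 and control hippocampi by the adjusted test. Of the 7 tested, 3 had a higher mean in the anti-CD4 group (Igf1r, Igfbp2 and Igfbp6) and 4 a lower one (Igf1, Igfbp3, Igfbp4 and Igfbp5, of which Igfbp3 and Igfbp4 were above 0 with arrays centred on the median). The groups overlapped for each. Their adjusted p in limma ran between 0.640 and 0.970, 0 of 7 passed 0.05, and 0 of 7 had an unadjusted p under 0.05. Across the 23602 rows the share past the adjusted threshold was 0.0%, and 3065 rows, 13.0%, had an unadjusted p under 0.05. The groups did not overlap for 8.18% of rows, 3.82% with anti-CD4 higher and 4.36% with it lower. The median difference of the 7 was -0.02, beside 0.00682 for all rows, and 51.8% of all rows lay above 0. These counts do not set the IGF genes apart from the array as a whole.

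**Figure D1:**
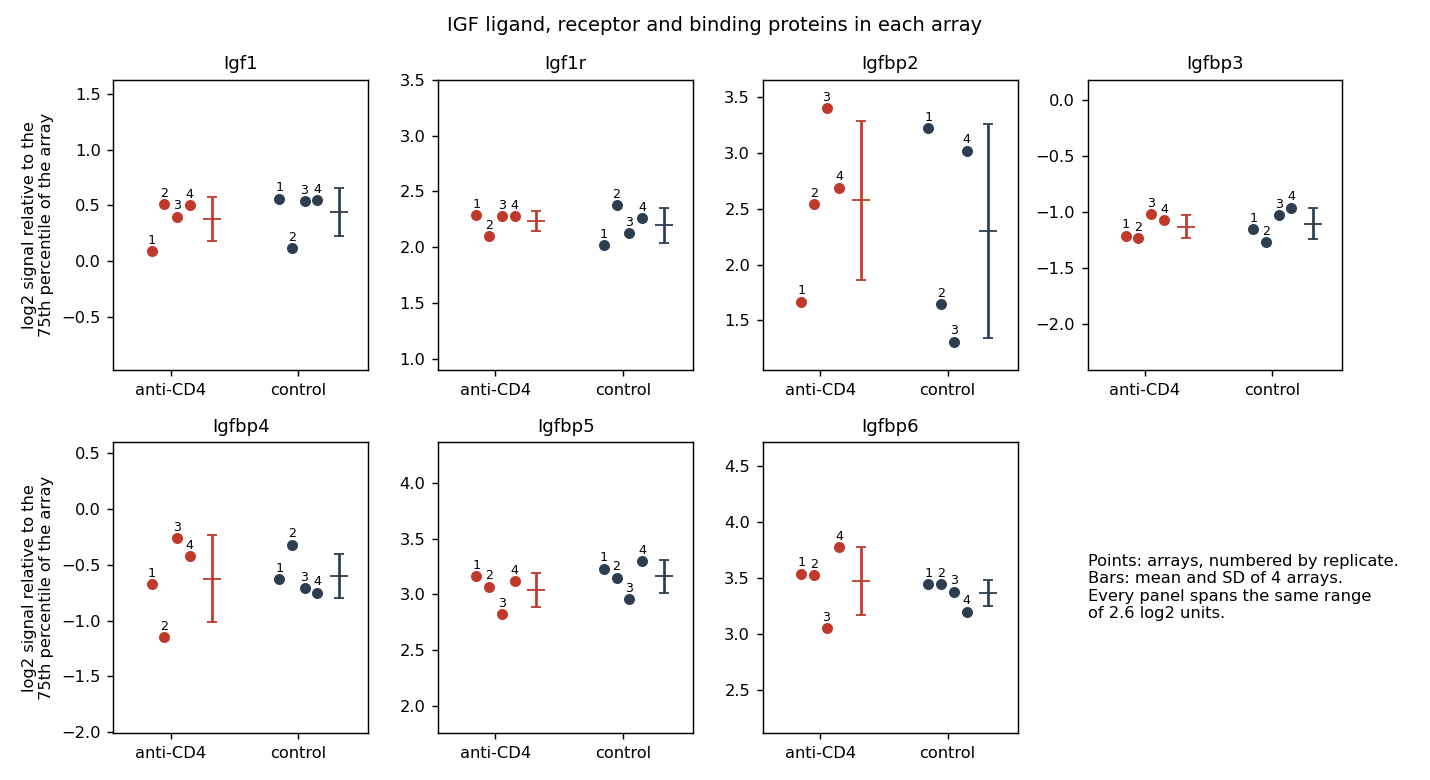
Log2 signal relative to the array's 75th percentile (y axis) of the 7 tested IGF genes, with 1 point per array numbered by replicate, anti-CD4 at the left and control at the right of each panel, and the mean and SD of 4 arrays as a bar beside the points. In all 7 genes the groups overlap, and Igfbp2 spans 2.09 on this scale while the other 6 span 0.32 to 0.89.

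**Figure D2:**
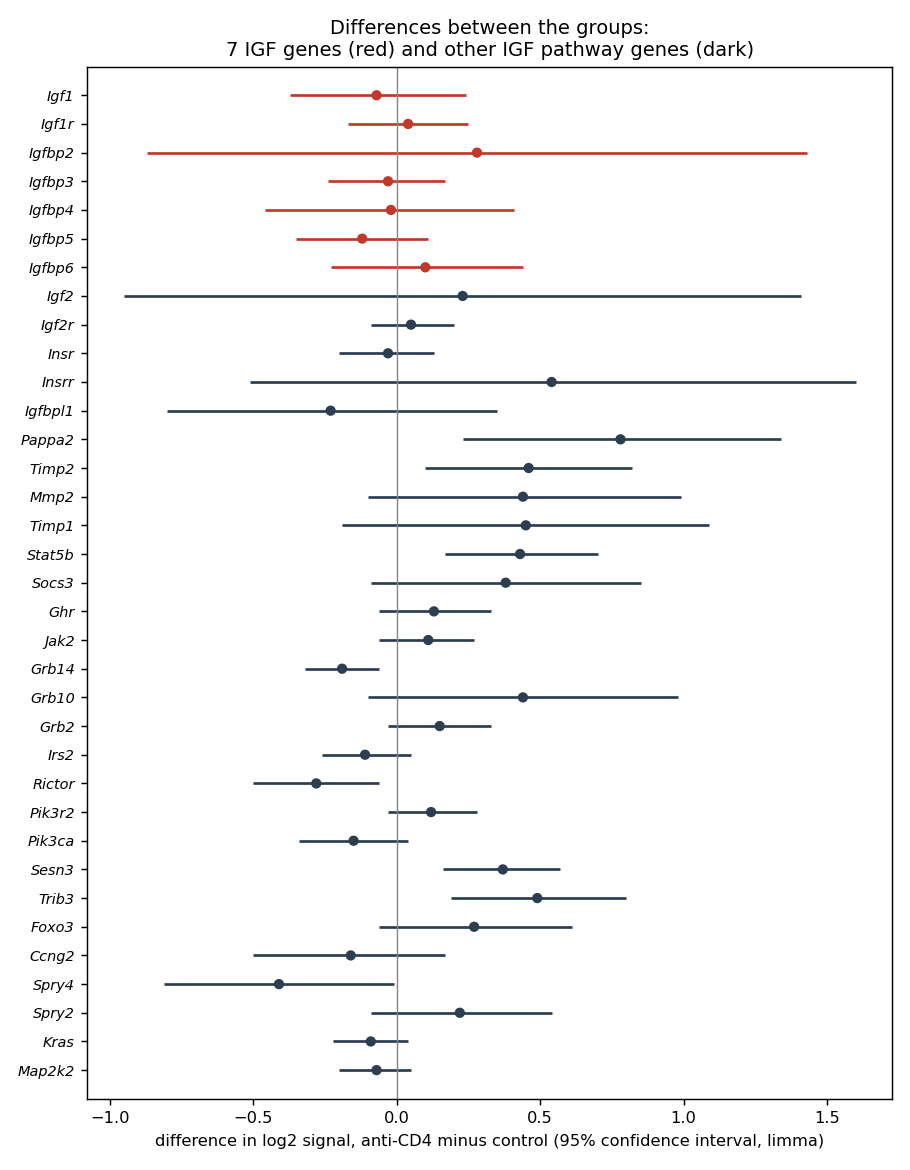
Difference anti-CD4 minus control (log2) with its 95% confidence interval for each tested IGF gene (red) and for the named pathway genes (dark), 1 gene per row. Every interval of the 7 genes includes 0, and that of Igfbp2, -0.87 to 1.43, is the widest among them.

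The ligand Igf1 was represented by the brightest of its probes, drawn for transcript variant 2 and placed by the files at chr10:87378456-87378515 (plus strand, mm9). It read 0.09, 0.51, 0.40 and 0.50 in anti-CD4 replicates 1 to 4, against 0.56, 0.12, 0.54 and 0.55 in control replicates 1 to 4. One array of each group lay low, anti-CD4 replicate 1 and control replicate 2, and the other 6 arrays lay between 0.40 and 0.56. The means were 0.38 ± 0.20 in the anti-CD4 group and 0.44 ± 0.22 in controls (SD, n = 4 each). Their difference was -0.07 (SE 0.13, adjusted p = 0.857, limma), with a 95% confidence interval of -0.37 to 0.24, that is, a fold between 0.775 and 1.18. Without anti-CD4 replicate 1 it was 0.03.

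Igf1 had 5 probes, 4 of them tested, and they did not share one pattern over the arrays. Transcript variant 2, for which the brightest probe was drawn, was not among the Igf1 transcripts of the gene table used here, whereas the other 4 probes were drawn for variant 1, which is. The probe at base 889 of that transcript (chr10:87393561-87393620) read -3.01, -3.37, -3.29 and -2.96 in anti-CD4 samples, against -3.04, -2.86, -2.98 and -2.95 in controls. Anti-CD4 replicates 2 and 3 lay below all controls there, and the difference was -0.20 (SE 0.10, adjusted p = 0.458, limma). The probe at base 909 shares 40 of its 60 bases with it, starting 20 bases further on. It read -2.87, -2.95, -2.86 and -2.39 in anti-CD4 samples, against -2.59, -2.67, -2.68 and -2.96 in controls, a difference of -0.04 (adjusted p = 0.914). Anti-CD4 replicate 2 was the lowest of its group at both probes. Control replicate 4 lay among the highest arrays at base 889 and, with anti-CD4 replicate 2, among the lowest at base 909.

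Near the 3′ end of the same transcript, at base 6909, the signal was -1.24, -1.23, -1.22 and -1.17 in anti-CD4 samples, against -1.38, -1.13, -1.38 and -1.22 in controls. The anti-CD4 values lay within the range of the controls, and the difference was 0.06 (SE 0.08, adjusted p = 0.748, limma). The remaining probe, at base 3252, was well above background on 3 of 8 arrays, 2 of anti-CD4 and 1 of control samples, and was not tested. Each Igf1 probe was printed in 2 spots per array, whose median coefficient of variation was 5.0% to 6.84% for the tested probes and 25.5% for the untested one. The highest on any array was 32.9% for the probe at base 909, and 9.23% to 14.4% for the other tested probes. The low values of anti-CD4 replicate 1 and control replicate 2 at the variant 2 probe did not recur at base 6909, where these arrays read -1.24 and -1.13.

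**Figure D3:**
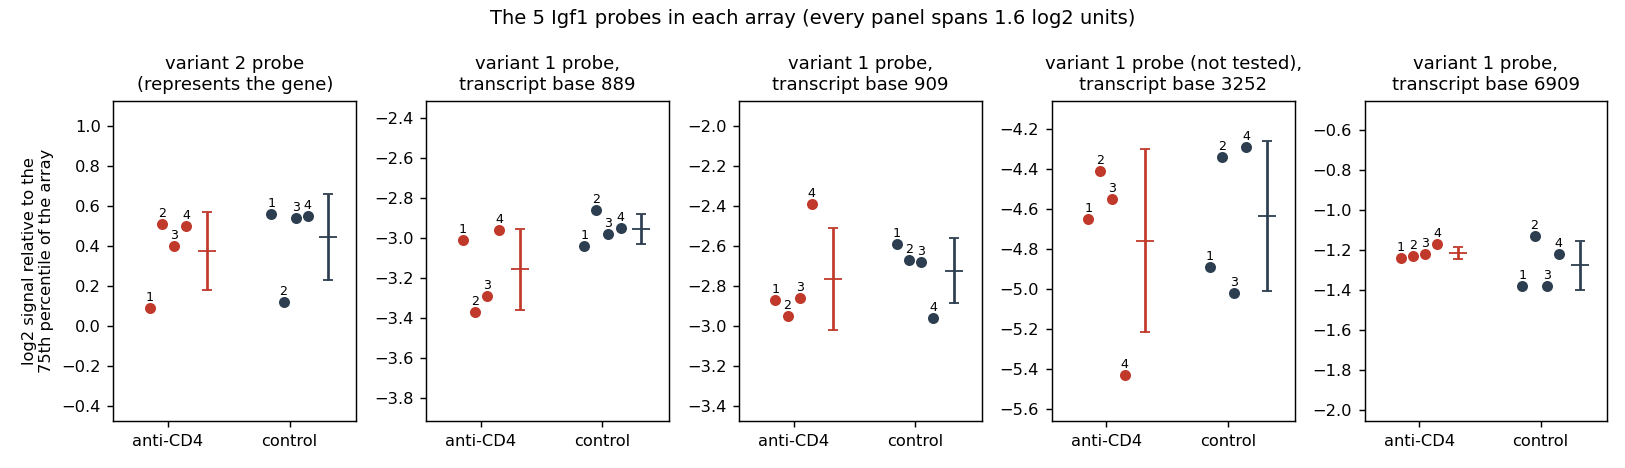
Log2 signal relative to the array's 75th percentile (y axis) of the 5 Igf1 probes, 1 panel per probe, with a point per array numbered by replicate, anti-CD4 at the left and control at the right, and bars for the mean and SD of 4 arrays. The variant 2 probe reads 0.09 to 0.56 and its 2 low arrays are not low for the variant 1 probe at transcript base 6909, which reads -1.38 to -1.13.

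The receptor Igf1r, a tyrosine kinase at the cell surface, was read by 1 probe at chr7:75378461-75378520 (plus strand, mm9). It read 2.29, 2.10, 2.28 and 2.28 in anti-CD4 samples, against 2.02, 2.38, 2.13 and 2.26 in controls. Anti-CD4 replicates 1, 3 and 4 lay within 0.01 of each other, and the range of the controls enclosed all 4. Means were 2.23 ± 0.09 in anti-CD4 samples and 2.20 ± 0.16 in controls (SD, n = 4 each), with a difference of 0.04 (SE 0.09, adjusted p = 0.878, limma). The 95% interval ran between folds of 0.889 and 1.19, and without control replicate 1 the difference was -0.02.

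Igfbp2, a secreted binding protein made in brain mainly by the choroid plexus, meninges and astrocytes, varied most between arrays. Its brighter probe (chr1:72898677-72898736, plus strand, mm9) read 1.67, 2.54, 3.40 and 2.69 in anti-CD4 samples, against 3.22, 1.65, 1.31 and 3.02 in controls. Within each group there were low and high arrays, and the groups overlapped over most of their range. The 8 arrays spanned 2.09, a 4.26-fold range, and the SD within groups was at the 99.1 percentile of all rows tested. The mean was 2.58 ± 0.71 in anti-CD4 samples and 2.30 ± 0.96 in controls (SD, n = 4 each). The difference of 0.28 (SE 0.50, adjusted p = 0.839, limma) had a 95% interval of -0.87 to 1.43, or folds between 0.545 and 2.69. These arrays do not distinguish between differences inside that interval.

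The second Igfbp2 probe (chr1:72898813-72898872), with 76 bases between it and the first, gave the same picture. Its readings were 1.44, 2.39, 3.22 and 2.48 in anti-CD4 samples, against 3.08, 1.56, 1.13 and 2.87 in controls. The order of the arrays within each group was that of the first probe, and the difference was 0.22 (adjusted p = 0.877, limma). The array-to-array variation was therefore read at both sites of the transcript.

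Choroid plexus markers were low on the same arrays as Igfbp2. Ttr, which encodes the thyroid hormone carrier transthyretin and defines choroid plexus epithelium, read 1.22, 7.60, 8.48 and 7.75 in anti-CD4 samples, against 8.16, 2.72, -0.46 and 8.26 in controls. The 3 arrays with the lowest Ttr, anti-CD4 replicate 1 and control replicates 2 and 3, were also the 3 with the lowest Igfbp2, at 1.31 to 1.67 where the other 5 read 2.54 to 3.40. All 14 choroid plexus markers were tested. Centred on each gene, the mean of the list was -2.70, 1.10, 2.46 and 1.22 in anti-CD4 samples, against 1.95, -2.43, -3.57 and 1.96 in controls. All 14 had a higher mean in the anti-CD4 group, with a median difference of 1.09, and 0 of 14 had an unadjusted p under 0.05. The mean of the meninges and fibroblast list (12 of 12 tested), centred likewise, was -0.06 to 0.25 in anti-CD4 samples and -0.55 to 0.28 in controls. Its genes differed in pattern. Of the 2 brightest, Slc13a4 was lowest on the 3 arrays with the lowest Ttr, at 1.16 to 2.06 where the other 5 read 2.83 to 3.38. Dcn read 4.33 to 4.75 over all arrays.

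With the array's Ttr signal as a covariate, the Igfbp2 difference was -0.05 (SE 0.17, adjusted p = 0.909, limma), against 0.28 (SE 0.50) without it. For the other 6 genes the SE was 0.09 to 0.21 with the covariate and 0.09 to 0.19 without it. Without control replicate 3, the array with the lowest Ttr, the Igfbp2 difference was -0.05. Leaving out the other arrays low in Ttr gave 0.06 for control replicate 2 and 0.58 for anti-CD4 replicate 1. The arrays are of bulk tissue, so fewer cells of a type and less RNA per cell cannot be told apart.

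**Figure D4:**
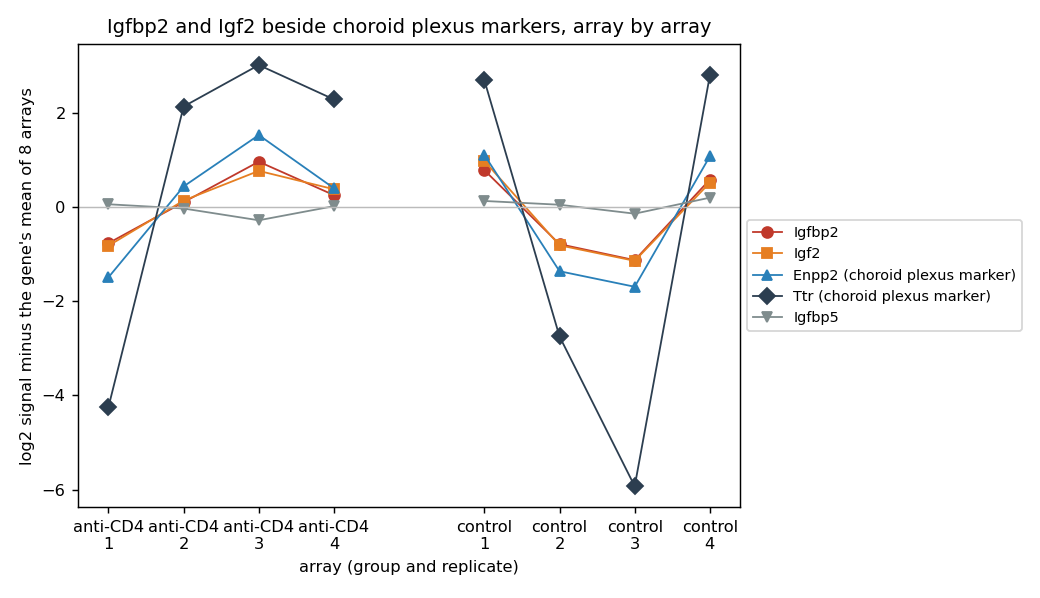
Log2 signal less the gene's mean over the 8 arrays (y axis) for Igfbp2, Igf2, Igfbp5 and the choroid plexus markers Enpp2 and Ttr on each array (x axis), anti-CD4 at the left and control at the right. Anti-CD4 replicate 1 and control replicates 2 and 3 lie below 0 for Igfbp2, Igf2, Enpp2 and Ttr, while Igfbp5 stays near 0.

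Igf2, the second IGF ligand, is not one of the 8 genes but showed the same arrays low. It read -2.88, -1.92, -1.29 and -1.68 in anti-CD4 samples, against -1.08, -2.87, -3.20 and -1.54 in controls. Its 3 lowest arrays were those with the lowest Ttr and Igfbp2. The difference was 0.23 (SE 0.52, adjusted p = 0.874, limma), and -0.11 with the Ttr covariate or without control replicate 3. Without control replicate 2 it was -0.00442, and without anti-CD4 replicate 1, also low in Ttr, it was 0.54.

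Igfbp5, a binding protein that also attaches to the extracellular matrix, is the neighbour of Igfbp2 on chromosome 1, on the opposite strand. The gene table lists 0 genes between them, and their probes lie 5957 bases apart. At chr1:72904829-72904888 (minus strand, mm9) Igfbp5 read 3.16, 3.07, 2.82 and 3.12 in anti-CD4 samples, against 3.23, 3.15, 2.96 and 3.30 in controls. All 4 anti-CD4 values lay at or below the mean of the controls, but the groups overlapped. The means were 3.04 ± 0.15 in anti-CD4 samples and 3.16 ± 0.14 in controls (SD, n = 4 each). The difference of -0.12 (SE 0.10, adjusted p = 0.640, limma) had the smallest adjusted p among the 7 genes. Igfbp5 spanned 0.47 over the 8 arrays, and its lowest reading was on anti-CD4 replicate 3, where Igfbp2 was highest. Its next lowest was on control replicate 3, where Igfbp2 was lowest. Without anti-CD4 replicate 3 the Igfbp5 difference was -0.04, and without control replicate 3 it was -0.18.

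Igfbp3, the main carrier of IGFs in blood, was read by 1 of its 2 probes, at chr11:7106594-7106653 (minus strand, mm9). It read -1.21, -1.23, -1.02 and -1.07 in anti-CD4 samples, against -1.15, -1.27, -1.03 and -0.96 in controls. The ranges nearly coincided, and Igfbp3 had the narrowest span of the 7 genes, 0.32. The mean was -1.13 ± 0.11 in anti-CD4 samples and -1.10 ± 0.14 in controls (SD, n = 4 each), a difference of -0.03 (SE 0.09, adjusted p = 0.896, limma). Its sign was positive when arrays were centred on the median, after normexp background correction and in the authors' deposited table. The other Igfbp3 probe was well above background on 0 of 8 arrays.

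Igfbp4, an inhibitory binding protein and the substrate of the protease PAPP-A, was read at chr11:98913334-98913393 (plus strand, mm9). Its signals were -0.67, -1.15, -0.26 and -0.42 in anti-CD4 samples, against -0.63, -0.32, -0.71 and -0.75 in controls. The anti-CD4 arrays held both the lowest and the highest value of all 8. The means were -0.62 ± 0.39 in anti-CD4 samples and -0.60 ± 0.20 in controls (SD, n = 4 each), a difference of -0.02 (SE 0.19, adjusted p = 0.970, limma). Without anti-CD4 replicate 2, the lowest array, it was 0.15, and without control replicate 2 it was 0.07, so its sign rests on those arrays. It was 0.01 with arrays centred on the median.

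Igfbp6, which binds IGF-2 in preference to IGF-1, was read at chr15:101979852-101979911 (plus strand, mm9). It read 3.54, 3.53, 3.05 and 3.78 in anti-CD4 samples, against 3.45, 3.45, 3.38 and 3.20 in controls. Anti-CD4 replicates 1, 2 and 4 lay above every control, and anti-CD4 replicate 3 lay below every control. The means were 3.48 ± 0.31 in anti-CD4 samples and 3.37 ± 0.12 in controls (SD, n = 4 each), a difference of 0.10 (SE 0.15, adjusted p = 0.792, limma). Without anti-CD4 replicate 3 it was 0.25, with an unadjusted p of 0.0379 and an adjusted p of 0.287 in limma, and without anti-CD4 replicate 4 it was 0.00146.

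Igfbp7, a secreted protein of blood vessels that binds IGFs weakly, was not measured by its only probe, at chr5:77778271-77778330 (minus strand, mm9). The probe was well above background on 0 of 8 arrays, with signals of -5.45, -6.50, -6.48 and -4.95 in anti-CD4 samples and -6.29, -6.38, -5.75 and -5.54 in controls, so no fold is given. In it 14 bases follow the AATAAA, and 23.3% of its 60 bases are G or C, where the median of the 55681 probes is 43.3%. A share that low or lower was found in 0.636% of probes. AATAAA was held by 10.1% of all 60-base probes (its reverse complement TTTATT by 3.74%), and 66.5% of those holding AATAAA were tested, beside 52.8% of all. Whether the base composition bears on the lack of signal was not tested. The endothelium and pericyte marker genes, of cells that are known to make Igfbp7, were all tested (15 of 15).

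For each gene the other named genes with the most similar profile over the 8 arrays were found among 14218 named genes, as a description with no test. Igfbp2 was most like Lbp, which encodes the lipopolysaccharide-binding protein (Pearson r = 0.998, n = 8 arrays), and Pltp, the phospholipid transfer protein (r = 0.996). Among its 100 most similar genes were 12 of the 14 choroid plexus markers, against 0 for each of the other 6 genes. The order of the 8 arrays was also shared (Spearman rho of 1.0 with Lbp and 0.976 with Pltp). The nearest profiles to Igf1 were those of Sf3a2 (r = 0.986) and Fcrl5 (r = 0.983), which were likewise low on anti-CD4 replicate 1 and control replicate 2. Igf1r was nearest to Brap (r = 0.971) and Irf1 (r = 0.952). For Igfbp3 they were Tmem168 (r = 0.970) and Rabepk (r = 0.963), for Igfbp4 Tefm (r = 0.969) and Phc3 (r = 0.965). Igfbp5 came closest to Ltb (r = 0.966) and Vmn2r86 (r = 0.963), and Igfbp6 to Endou (r = 0.990) and Cdpf1 (r = 0.979). With so many genes and 8 arrays, values of this size arise for each gene examined, and the arrays share their scaling.

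The rest of the IGF system showed no change by the adjusted test either. Besides Igf2, the receptors Igf2r, which clears IGF-2, and Insr, the insulin receptor, had differences of 0.05 and -0.03 (adjusted p = 0.757 and 0.868, limma). The other Insr probes differed by -0.11 and -0.19, and the sign at the first was positive with arrays centred on the median and in the authors' deposited table. The insulin receptor-related receptor Insrr differed by 0.54 (SE 0.46) and the binding protein-like Igfbpl1 by -0.23 (SE 0.25), both with overlapping groups. The Insrr probe was well above background on 5 of 8 arrays, 3 of anti-CD4 and 2 of control samples, so its lower readings are near background. Insrr moved to 0.16 in the authors' deposited table or without control replicate 4, to 0.23 after normexp correction and to 0.93 with array weights, and Igfbpl1 to -0.01 without control replicate 2. Igfbp1, a binding protein made by liver and listed next to Igfbp3 with 0 genes between them, was well above background on 1 of 8 arrays and was not tested. Igfals, the subunit that stabilises IGF complexes in blood, was at background on all.

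The 7 lists of pathway genes, 82 genes in all, had 74 tested, 42 with a higher and 32 with a lower mean in the anti-CD4 group, and 0 passed the adjusted threshold. An unadjusted p under 0.05 was found for 8 of the 74, 10.8%, near the 13.0% of all rows, with 5 higher (6.17% of all rows were higher) and 3 lower (6.82%). With arrays centred on the median they were 5 higher and 1 lower, while all rows split 8.75% to 4.05%. Groups did not overlap for 5.41% of the 74, beside 8.18% of all rows. Apart from Prlr, the genes of these lists named below were taken for their small unadjusted p. Their p-values and separated groups are therefore no support for a change.

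Of the proteases that cut binding proteins and their inhibitors, 6 of 9 tested had a higher mean in anti-CD4 samples, beside 51.8% of all rows. Their median difference was 0.32. Pappa2, a protease that cuts IGFBP-3 and IGFBP-5, read -1.53, -0.97, -1.95 and -1.82 in anti-CD4 samples, against -2.18, -2.51, -1.93 and -2.77 in controls. The groups overlapped by 1 control array, and the difference was 0.78 (SE 0.24, unadjusted p = 0.0115, adjusted p = 0.270, limma). Timp2, a metalloprotease inhibitor, differed by 0.46 (adjusted p = 0.294, limma) at its brighter probe and by 0.09 at the other. The 4 tested markers of the hypothalamus, of 8 listed, had differences of 0.04 to 4.58 with a median of 0.33, the widest being that of Trh alone, and their part in these values was not tested.

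In the growth hormone axis, which drives Igf1 transcription in liver, 8 of 8 tested genes had a higher mean in anti-CD4 samples, beside 51.8% of all rows. Their median difference was 0.18, and the smallest rounded to 0.0. Among them Prlr, the prolactin receptor, named after its values were seen, read -0.87, 1.37, 2.31 and 1.34 in anti-CD4 samples, against 2.24, -1.62, -1.43 and 2.14 in controls. Its 3 lowest arrays were those with the lowest Ttr. The mean of the list without Prlr, centred on each gene, had overlapping groups. It read 0.02, 0.23, -0.01 and 0.15 in anti-CD4 samples, against 0.08, -0.23, -0.2 and -0.04 in controls. Stat5b, the transcription factor of this axis, read 1.19, 1.42, 1.02 and 1.22 in anti-CD4 samples, against 0.83, 0.50, 0.86 and 0.93 in controls. The groups did not overlap, as for 8.18% of all rows. The difference was 0.43 (SE 0.12, unadjusted p = 0.00541, adjusted p = 0.248, limma), but 0.18 at its other probe. The growth hormone receptor Ghr differed by 0.13 (adjusted p = 0.539).

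Downstream of the receptor, medians lay near 0. The adaptors (5 of 12 higher) had a median difference of -0.04, the PI3K, AKT and mTOR branch (10 of 19 higher) 0.04 and the MAPK branch (5 of 12 higher) -0.01. Grb14, an adaptor that inhibits the insulin receptor, differed by -0.19 with separated groups (adjusted p = 0.268, limma). Rictor, a subunit of mTOR complex 2, differed by -0.28 (adjusted p = 0.291), and Spry4, a feedback inhibitor of MAPK signalling, by -0.41 (adjusted p = 0.371), but by -0.12 after normexp correction and by -0.01 in the authors' deposited table.

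FOXO factors, which IGF signalling keeps out of the nucleus, and their target genes had 5 of 9 higher and a median difference of 0.06. Sesn3, a sestrin induced by FOXO factors that restrains mTOR complex 1, read 1.65, 1.78, 1.65 and 1.63 in anti-CD4 samples, against 1.28, 1.09, 1.44 and 1.43 in controls. Its groups did not overlap, as for 8.18% of all rows, and the difference was 0.37 (SE 0.09, unadjusted p = 0.00302, adjusted p = 0.239, limma). Trib3, a pseudokinase that binds AKT, differed by 0.49 with overlapping groups (adjusted p = 0.248).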

How the data were processed

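Per the file headers, the deposited scanner files come from Feature Extraction 10.7.3.1 and array design 028005. Their processed signal is a spot intensity from which the software had removed background and spatial trend, per the file headers. The authors also deposited log2 values of these 55681 probes, brought close to one distribution and not background-subtracted, as set against the scanner values. The submitters' processing notes name limma, its use and any other step being not given in the sources used here.

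Control and outlier-flagged spots were left out and spots of 1 probe averaged. Log2 processed signals were scaled to each array's 75th percentile. Probes well above background on at least 4 of 8 arrays were tested (29406), and the brightest tested probe stood for a gene, which left 23602 rows, 15790 of them named. Per array, 51.13% to 54.28% of probes were well above background and 0 were saturated, and the number of arrays limits precision. Names came from a RefSeq gene table (GRCm38.p6) (27503 probes matched by accession, 3554 by symbol, 404 by synonym), 1351 probes kept the name in the files and 22869 had none. Coordinates are those of the files (mm9), and probe sequences those of the scanner files. No mm9 annotation was used, so exon and UTR positions were not analysed here.

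Groups were taken from the sample labels and compared in R 4.3.3 with limma 3.58.1 (lmFit, eBayes, two-sided tests), and p-values were adjusted by Benjamini and Hochberg's method with 0.05 as threshold. Tested on simulated data over 23602 rows, this recovered 81% of genes changed by 1 and 41% of those changed by 0.5 on the log2 scale in the comparison of anti-CD4 with control. The simulated noise was independent between genes and arrays, so shifts shared by many genes were not represented. These shares are averages over genes of differing variation and do not give the power for any single gene. The genes named were the members, all genes of the IGF system list, up to 4 per further pathway list by unadjusted p, the 2 most similar profiles per member, Ttr and up to 2 of the brightest per marker list. A gene that this rule takes is not reported here. The members and lists were chosen with earlier results of these data known. Alternatives covered scaling, background correction, the filter, the probe of a gene, the authors' table, the replicate number as a block, eBayes options, array weights, a Ttr covariate and each array left out.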

Additional observations from a re-analysis of the deposited data

Results flagged for a closer look

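Within a group of 4 arrays, 1 value stood far from the other 3 in 4 of 78 groups of values examined (5.13%), and chance gives about 1 in 20. For Igf1 it was control replicate 2, at 0.12 where the other controls read 0.54 to 0.56. For Igf1r it was anti-CD4 replicate 2, at 2.10 where the others read 2.28 to 2.29. The Igf1 probe at transcript base 909 read -2.39 on anti-CD4 replicate 4, against -2.95 to -2.86 on the other anti-CD4 arrays. Sesn3 read 1.78 on anti-CD4 replicate 2, where the others read 1.63 to 1.65.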

How the results depend on the processing

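No IGF gene passed the adjusted threshold in limma under any alternative run (0 of 7, lowest adjusted p 0.287, for Igfbp6). Of 140 alternative values of the 7 genes, 129 kept their direction and 11 did not. For these genes the changes of the filter, the replicate block, the eBayes options and the fit of every tested probe left the difference itself unchanged. Those values could only keep their direction, so the count overstates how stable the directions were. Over all rows 0 passed (3065 at an unadjusted p under 0.05). In the authors' values 2 rows passed, with trended and robust eBayes 2, and with 1 array left out 0 to 11, the 11 without anti-CD4 replicate 3. With 1 array left out, differences ran between -0.17 and 0.03 for Igf1, positive without anti-CD4 replicate 1, and between -0.02 and 0.10 for Igf1r, negative without control replicate 1. They ran between -0.05 and 0.59 for Igfbp2, negative without control replicate 3, and between -0.09 and 0.02 for Igfbp3, positive without control replicate 4. For Igfbp4 they ran between -0.15 and 0.15, positive without anti-CD4 replicate 2 (0.15) or control replicate 2 (0.07). Those of Igfbp5 ran between -0.18 and -0.04 and those of Igfbp6 between 0.00146 and 0.25. Those of Igf2 ran between -0.11 and 0.59, negative without control replicate 3 or 2 (-0.00442), and those of Insr between -0.06 and 0.00336, positive without control replicate 4. With the Ttr covariate Igfbp2 was -0.05 and Igf2 -0.11. Median centring, which moved the median of all rows to 0.0405, gave 0.000234 for Igfbp3, 0.01 for Igfbp4 and 0.000675 for Insr. Normexp correction gave 0.01 for Igfbp3, and the authors' values gave 0.03 for Igfbp3 and 0.01 for Insr. The causes were not tested. With the replicate number as a block 0 genes passed (2207 at an unadjusted p under 0.05), and 0 of the 7. Deviations of same-numbered arrays correlated at -0.454 to 0.305, with 1 of 4 pairs over 0.1. Of the 4 anti-CD4 arrays, 1 correlated best with its own number. The replicate number is also the column on the slide. What else same-numbered samples share is not given by the labels, and these correlations do not settle it.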

Other observations

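Averaged over the 9 tested proteases and inhibitors of binding proteins, centred on each gene, the arrays read 0.18, 0.14, 0.01 and 0.23 in anti-CD4 samples, against -0.03, -0.22, -0.08 and -0.22 in controls. For this mean the groups did not overlap. Nor did they for the mean of the thalamus and habenula markers (7 tested), at 0.03 to 0.27 in anti-CD4 samples and -0.2 to 0.0 in controls. The part of such tissue in these values was not tested. Such means were computed for the IGF members, 7 pathway lists and 13 marker lists, and these are named for their separation. Among single rows, 8.18% had groups that did not overlap. Trh, which encodes thyrotropin-releasing hormone and was named after its values were seen, read 2.68, 2.37, -2.49 and 2.34 in anti-CD4 samples, against -2.94, -4.36, -3.02 and -3.10 in controls, a difference of 4.58 (unadjusted p = 0.00247, adjusted p = 0.228, limma). Anti-CD4 replicates 1, 2 and 4 were high and replicate 3 lay near the controls. The other 3 tested hypothalamus markers, averaged after centring on each gene, read 0.04, 0.33, -0.17 and 0.27 in anti-CD4 samples, against -0.07, -0.23, 0.02 and -0.19 in controls, with overlapping groups.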
